A study of Mus musculus with 16 samples.

Results

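The genes described here are 10 genes that act in the maturation and storage of secreted peptides, chosen by their symbols: the prohormone convertases Pcsk1 and Pcsk2, the convertase partners Pcsk1n and Scg5, the trimming and amidating enzymes Cpe and Pam, and the granins Scg2, Scg3, Chga and Chgb. They were 10 of 27272 genes with at least 1 transcript in the cells kept, and all 10 were detected. They were followed across 9 cell types, 21 clusters of neurons and the 4 groups of the study, which asked how daily tamoxifen acts on the hypothalamus and preoptic area (hypothalamus-POA) and whether the estrogen receptor alpha gene Esr1 is needed there.

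Single cells of the hypothalamus-POA of 16 mice labelled as female were profiled by Drop-seq, with 1 library per mouse. In this method barcoded beads tag each captured transcript with the barcode of its cell and with a unique molecular identifier (UMI), so that UMIs count transcripts and not their PCR copies. All mice were of a CD-1;129P2 mixed strain, were 8 to 10 weeks old at the start, received 28 daily subcutaneous injections, and were killed 2 hours after the last one. The groups were 3 WT mice given oil, the vehicle, 5 WT mice given tamoxifen at 0.1 mg/kg, 4 Esr1cKO mice given oil and 4 Esr1cKO mice given tamoxifen. The Esr1cKO mice carried a floxed Esr1 allele and a Cre transgene driven by Nkx2-1, a homeobox gene of the medial basal hypothalamus, and the WT mice were littermates without Cre. The deletion is therefore restricted to cells with a history of Nkx2-1 expression, and the other cells of the same tissue keep Esr1. Where the counted Esr1 tags lie relative to the floxed exon is not given in the sources used here, so the Esr1 level is printed without reading the genotype from it. It averaged 60.0 UMIs per 1000000 UMIs (CPM) in the neurons of WT oil mice, 66.1 in WT tamoxifen mice, 48.9 in Esr1cKO oil mice and 53.0 in Esr1cKO tamoxifen mice.

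Total counts were 2634253 to 8038158 UMIs per library. The 55675 cells kept accounted for 48.9% to 76.8% of them, at a median of 563 to 819 UMIs per cell in each library. Between 244 and 905 neurons were kept per library. Levels are therefore given as CPM of the UMIs summed over the cells of a type in a library, and the mice are the replicates. Counts of single cells are given with exact Clopper-Pearson intervals at a level of 95%, which cover counting error only. In 2 libraries, WT oil replicate 3 and Esr1cKO tamoxifen replicate 3, barcodes with fewer than 100 genes were absent, where the other libraries went down to 20. On the leading component of expression, summed over all kept cells of a library, these 2 libraries lay at 55.4 and 53.0. The rest lay at -19.8 to -1.43. In addition, 1717 kept cells (3.08%) carried a barcode that also occurred in another library, most of them in WT tamoxifen replicates 4 and 5, Esr1cKO oil replicate 4 and Esr1cKO tamoxifen replicate 4. Results were recomputed without these libraries and without these cells. According to the methods, mice of the 4 groups were handled side by side on 4 days, but the labels do not give the day of a mouse.

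Neuropeptides and many hormones are made as inactive precursors, which are cut, trimmed and modified as they move through the secretory pathway into dense-core vesicles. The convertases cut the precursor at pairs of basic residues, Cpe removes the basic residues left at the new end, and Pam converts an exposed glycine into an amide that many peptides need for activity. Granins are acidic proteins that aggregate in the trans-Golgi network, help to form the vesicles and are themselves cut into peptides. In the hypothalamus the set is best known from neurosecretory neurons, which release oxytocin, vasopressin and releasing hormones.

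In GENCODE vM21 (GRCm38, the assembly also called mm10, which the submitters' processing notes name), each of the 10 genes is a protein-coding gene. Pcsk1 lies at chr13:75089826-75134861 on the plus strand, Pcsk2 at chr2:143546156-143816285 (plus), Pcsk1n at chrX:7919822-7924410 (plus) and Scg5 at chr2:113776362-113829121 (minus). Cpe lies at chr8:64592542-64693054 (minus) and Pam at chr1:97795114-98095646 (minus). Scg2 lies at chr1:79434669-79440120 (minus), Scg3 at chr9:75643189-75684056 (minus), Chga at chr12:102554969-102565028 (plus) and Chgb at chr2:132781278-132795079 (plus). Pcsk2, Scg5 and Chgb thus share chromosome 2, and Pam and Scg2 share chromosome 1.

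Promoters of several of these genes share a short motif. The RefSeq promoter table for GRCm38.p6, which spans 250 bases before to 50 bases after a gene's start, held 9 of the 10 genes. The palindrome TGACGTCA, the full cyclic AMP response element, was searched on both strands and occurred in 588 of 32851 promoters of the table (1.79%). Among the 9 genes it occurred in the promoters of Pcsk1, Scg2 and Chgb. All 3 are shown here, each with 30 bases in the direction of transcription and the palindrome in capitals:
Pcsk1: ccaggtagatcTGACGTCAagagatggctt
Scg2: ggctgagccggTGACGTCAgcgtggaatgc
Chgb: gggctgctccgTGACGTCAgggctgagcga
The Pcsk1 window is chr13:75089768-75089797 on the plus strand, the Scg2 window chr1:79440076-79440105 on the minus strand and the Chgb window chr2:132781559-132781588 on the plus strand. The palindrome began 78, 68 and 72 bases upstream of the RefSeq start that the table uses, at position 75089857, 79440026 and 132781642, respectively. Those starts lie inside the GENCODE genes given above. Counted from the outermost GENCODE start, the palindrome began 47 bases upstream for Pcsk1 and 26 and 292 bases downstream for Scg2 and Chgb. The shorter core TGACGT, which the palindrome contains, occurred in 2468 promoters (7.51%), among them those of Pcsk1, Scg2, Scg5, Chga and Chgb. These matches describe sequence only, and no binding was measured.

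Expression across cell types was asked first. Each cluster of cells was built without the 10 genes and named from its markers: 13550 astrocytes, 9218 oligodendrocytes, 9151 neurons, 7196 endothelial cells, 5400 microglia, 4445 polydendrocytes (oligodendrocyte precursors), 3185 ependymal cells, 2363 mural cells and 1167 fibroblasts. In neurons 8 of the 10 genes were higher than in the other cells of the same library, Cpe was lower, and Scg3 did not pass the test (edgeR quasi-likelihood test with library as a block, Benjamini-Hochberg adjusted p below 0.05). Of all 13061 genes tested in neurons 81.7% passed it, 40.4% as higher, so passing is common here and the sizes carry the comparison. The median log2 fold change of the 10 genes in neurons was 2.68, against -0.00 for all genes tested.

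The convertases and their partners were neuronal. Pcsk1, which acts early in the pathway, ranged from 37.6 to 138 CPM over the 16 libraries in neurons, with a median of 66.9, and averaged 5.33 CPM in all other cells together. Pcsk2, which acts later and at more acidic pH, ranged from 199 to 412 CPM with a median of 240, against a mean of 36.3. No library had a level in neurons as low as in its other cells for either gene. The log2 fold changes were 3.92 (SE 0.17) for Pcsk1 and 2.73 (SE 0.07) for Pcsk2. Pcsk1n encodes proSAAS, an inhibitor of the Pcsk1 product, and ranged from 784 to 1894 CPM with a median of 1398, against a mean of 216 in other cells. Scg5 encodes 7B2, the chaperone that the Pcsk2 product needs to mature, and ranged from 984 to 1577 CPM with a median of 1171, against 161. Their log2 fold changes were 2.63 (SE 0.07) and 2.86 (SE 0.06), higher in 16 of 16 libraries.

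Among the cells other than neurons, polydendrocytes had the next-highest mean of Pcsk1, Pcsk2, Pcsk1n and Scg5, at 12.2, 106, 548 and 481 CPM. All 4 genes were lower there than in neurons in 16 of 16 libraries (exact sign-flip permutation tests on log2(CPM + 10), two-sided, adjusted p = 1.4e-04 each over 80 pairs of neighbouring types). Polydendrocytes and ependymal cells, at 106 and 85.8 CPM, did not differ in Pcsk2 beyond their spread (exact permutation test, adjusted p = 0.137). For Pcsk1n the order went on from polydendrocytes to ependymal cells at 332 CPM and oligodendrocytes at 245 CPM, each step in 16 of 16 libraries, while Pcsk1 did not separate any pair of neighbouring types below neurons.

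Cpe and Pam, the trimming and amidating enzymes, were spread over more cell types. Cpe was highest in astrocytes, at 2429 to 4001 CPM over the 16 libraries with a mean of 3305 ± 464 (SD, n = 16), ahead of ependymal cells at 1863 ± 263 and neurons at 750 ± 84.3. Both steps of this order held in 16 of 16 libraries for astrocytes over ependymal cells and for ependymal cells over fibroblasts, the type next in order, which at 773 CPM did not differ from neurons beyond its spread (exact permutation test, adjusted p = 0.878). Against all other cells Cpe was higher in astrocytes (log2 fold change 2.46) and ependymal cells (1.04) and lower in neurons (-0.67, SE 0.06, lower in 15 of 16 libraries). Pam averaged 638 ± 70.1 CPM in neurons and 644 ± 193 in fibroblasts (SD, n = 16), which did not differ beyond their spread (adjusted p = 0.803, exact permutation test). Both stood above endothelial cells at 399 CPM, in which the fitted log2 fold change of Pam against other cells was 0.25. In CPM the other cells were close, at a mean of 395, and endothelial cells were higher in 10 of 16 libraries.

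The granins split into 3 patterns. Scg2, the precursor of secretoneurin, was nearly all neuronal: 96.3% of its 58114 UMIs lay in neurons, where it ranged from 1921 to 4189 CPM with a median of 3048, and it averaged 52.4 CPM in other cells (log2 fold change 5.78, SE 0.10). Scg3, which binds cholesterol-rich vesicle membranes and other granins, was higher in astrocytes, at 1002 to 1432 CPM, than in neurons, at 273 to 495 CPM, without overlap between the types. That difference held in 16 of 16 libraries (exact permutation test, adjusted p = 1.4e-04), and 45.2% of the Scg3 UMIs lay in astrocytes against 34.5% in neurons. How many of all genes separate these types without overlap was not counted. Chga and Chgb, the classical chromogranins, ranged from 297 to 483 and from 684 to 1243 CPM in neurons and were higher there than in other cells by 1.55 (SE 0.20) and 3.34 (SE 0.14) on the log2 scale. The other cells averaged 151 CPM of Chga with the fibroblast cluster included, which stood at 3985 CPM and is described below. Above polydendrocytes, the type next below neurons at 65.7 CPM, Chga in neurons lay by 2.45 on the log2 scale, in 16 of 16 libraries.

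**Figure D1:**
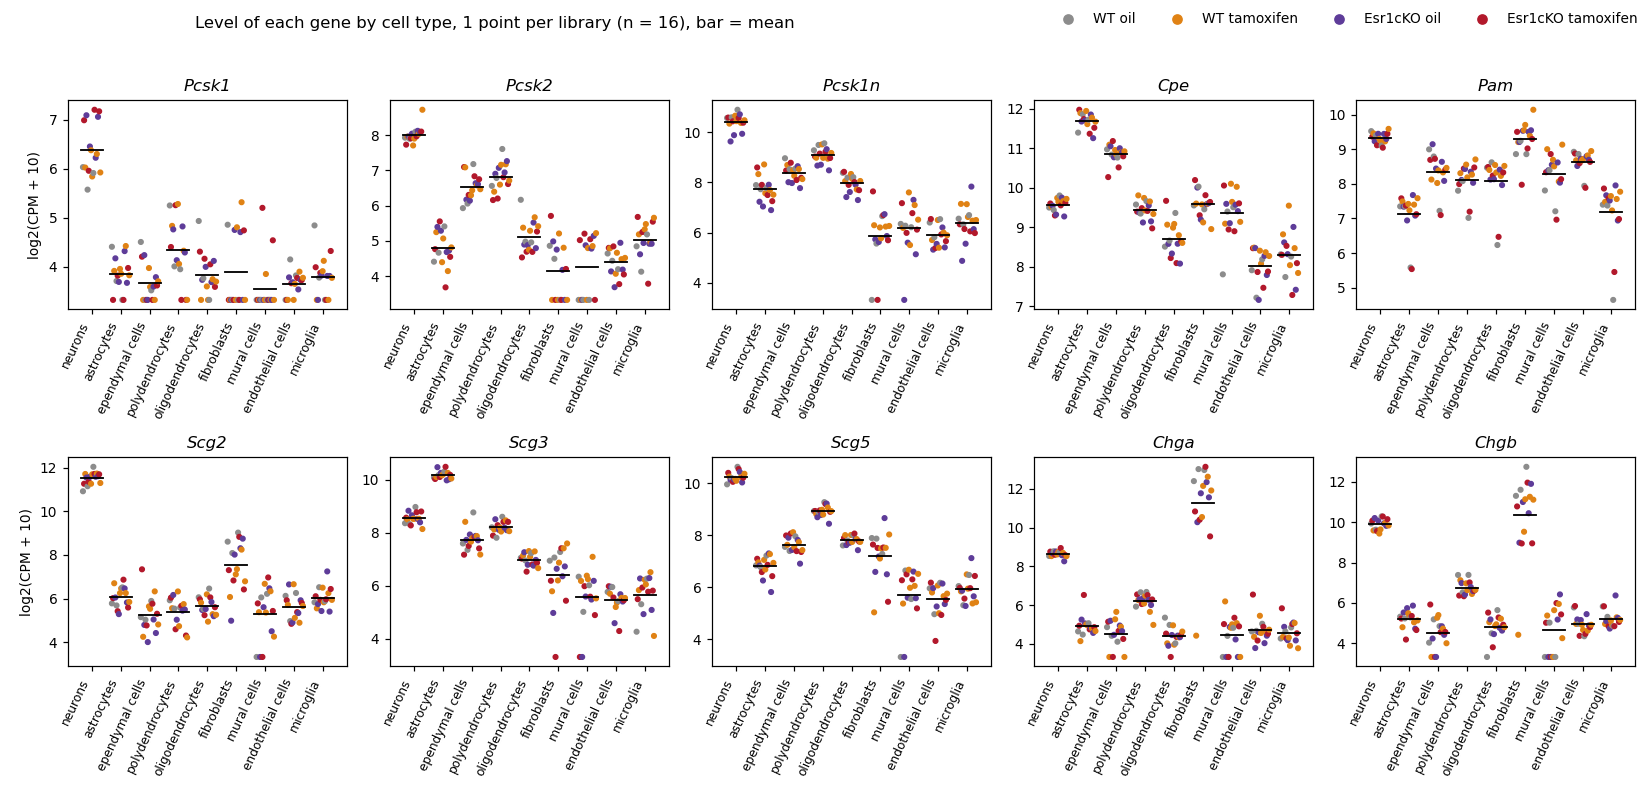
Level of each of the 10 genes in 9 cell types. The vertical axis is log2(CPM + 10), each point is 1 library coloured by group and each bar is the mean of the libraries. Neurons sit above the other types for Pcsk1, Pcsk2, Pcsk1n, Scg2 and Scg5, astrocytes for Cpe and Scg3, and the fibroblast cluster spreads widely for Chga and Chgb.

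The widest spread of Chga and Chgb was in the fibroblast cluster, at 3985 ± 2856 and 2162 ± 1735 CPM (SD, n = 16), and it came from a small group of cells within it. At a finer resolution 198 cells separated, with 5 of 6 fixed markers of the pars tuberalis, the hormone-secreting rim of the pituitary stalk, among them Tshb and Cga, and they are called pars tuberalis-like. Over the 9 libraries with at least 10 such cells Chga ranged from 15629 to 39109 CPM, with a mean of 24524 ± 8555, and Chgb from 4306 to 23493 CPM, with a mean of 12380 ± 5527 (SD, n = 9). Against all other cells Chga was higher by 6.82 (SE 0.19) and Chgb by 4.61 (SE 0.18) on the log2 scale, while Pcsk2 (-3.17), Pcsk1n (-2.52), Pam (-0.75) and Cpe (-0.64) were lower (edgeR, adjusted p below 0.05). These 6 of 10 genes compare with 29.2% of all genes tested, and the 2 higher ones with 3.17%. Scg2, at 1307 ± 517 CPM in these cells, did not pass the test (-0.13), nor did Scg3, Scg5 and Pcsk1. The pars tuberalis-like cells thus held 40.8% of all Chga UMIs and 12.7% of all Chgb UMIs. In the fibroblast cluster without them, Chga and Chgb were lower than in other cells, by -3.42 and -4.24 on the log2 scale, in place of 4.53 and 2.44 higher with them.

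Tanycytes, the radial cells of the third ventricle floor, also separated at the finer resolution, with 1386 cells. Cpe averaged 2694 ± 676 CPM in them (SD, n = 16) and was higher than in other cells by 1.39 on the log2 scale, and Pam by 0.29, whereas the other 8 genes were lower. All 10 genes thus passed the test in tanycytes, against 45.7% of genes tested.

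Over all 9 types 85 of 90 tests of these genes passed, 15 as higher and 70 as lower, against 68.1% of all tests over genes. The 5 that did not were Scg3 in neurons (0.14, SE 0.07, adjusted p = 0.0717 from edgeR), Pam in oligodendrocytes (-0.18), Pcsk2 in ependymal cells (-0.14) and in polydendrocytes (-0.01) and Scg5 in polydendrocytes (-0.10). In CPM, Pam in oligodendrocytes was above the other cells in 0 of 16 libraries, at a mean of 287 against 416. The fitted fold changes use TMM scaling and can differ from ratios of CPM. In the WT libraries alone Scg3 in neurons stood at -0.09. Without the 2 libraries that stood apart 82 tests passed, and without shared barcodes 84.

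Free RNA from broken cells is taken up by droplets of every type, so the levels were set beside those in barcodes with 200 genes or fewer. These barcodes serve as a stand-in for free RNA, and whether they hold cells was not tested. In those barcodes Cpe averaged 2645 CPM, Scg2 742, Pcsk1n 735, Scg5 557, Scg3 483, Chgb 311, Pam 266, Chga 214, Pcsk2 110 and Pcsk1 16.2. Endothelial cells, which are not known to secrete neuropeptides, had 5.92% to 17.0% of that level for the 9 genes other than Pam. Neurons were above it for Pcsk1 (491%), Scg2 (398%), Chgb (310%), Pcsk2 (229%), Scg5 (217%), Pcsk1n (187%) and Chga (183%), and for Pam (240%). For Cpe and Scg3 the astrocytes stood at 125% and 241% and the neurons at 28.3% and 76.5%. Microglia and mural cells reached 27.5% and 26.2% over the 9 genes other than Pam. Polydendrocytes stood at 75.5% for Pcsk1, 96.6% for Pcsk2, 74.6% for Pcsk1n and 86.4% for Scg5, so for these genes they lay below the level in those barcodes.

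The share of cells with a UMI followed the same order but depended on depth. Pcsk1 had a UMI in 762 of 9151 neurons, 8.33% (7.77 to 8.91), whose median depth was 1488 UMIs, and in 0.169% of mural cells, at a median of 527 UMIs. With each cell thinned to 500 UMIs the share was 2.81% in neurons and 0 of 1268 in mural cells, which allows a share of up to 0.290%; 1829 shallower neurons and 1095 mural cells were left out. Scg2 had a UMI in 70.7% of neurons, or 54.2% after thinning, and in 2.75% of mural cells, or 3.08%. Scg3 had a UMI in 41.9% of astrocytes and 39.4% of neurons, and after thinning in 40.6% and 15.4%. The lowest share of Scg3 was 2.72%, in microglia at a median depth of 614.5 UMIs.

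Other genes of the same pathway were counted for comparison in neurons. Of 12 genes of the dense-core vesicle membrane and its exocytosis, 11 were higher and 0 lower, with a median log2 fold change of 2.21. Syt4, a vesicle synaptotagmin, stood at 4.53 and Rab3a, a vesicle GTPase, at 3.25. Of 22 neuropeptide precursors tested out of 42 listed, 21 were higher and 1 lower, with a median of 3.76 and the largest values for Tac2 (6.47) and Gal (6.44). Unlike the genes followed here, the precursors were not removed before clustering. Avp, Gal, Tac2 and Cartpt were among the leading genes of the neuron cluster. The direction and median of the precursors are thus in part set by how neurons were defined, and are no independent comparison. Precursors that were not tested do not enter them. Of 6 further granin-like and vesicle cargo genes 5 were higher, with a median of 2.73, led by Resp18 (5.10) and Vgf (4.62). Resp18 was also among the leading genes of the neuron cluster. The convertases outside the set behaved otherwise: of 6 tested 3 were higher and 2 lower, with a median of 0.04 and the largest values for Pcsk4 (1.13) and Pcsk5 (0.67). Of 9 other carboxypeptidases and peptide-modifying enzymes 1 was higher, Qpct (0.55), and 7 were lower, with a median of -1.37. Qpctl stood at 0.33 and did not pass the test.

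Neurons were next divided into 21 clusters, again built without the 10 genes and each called by the gene with the highest fold against other neurons. The Hdc cluster had too few cells per library to be tested. In the other 20 clusters 122 of 200 tests of the 10 genes passed, 37 as higher and 85 as lower than in the other neurons of the same library, against 22.3% of all tests over genes. Without the 2 libraries that stood apart 113 passed. The 20 clusters tested were uneven in depth: median UMIs per cell ran from 380 in the Slc6a3 cluster to 4216 in the Tac2 cluster, and the Lrrtm4 cluster had 0 cells from the 2 libraries that stood apart. In the Slc6a3, Ndnf and B230323A14Rik clusters the median of all genes lay at -2.08, -1.18 and -0.96 on the log2 scale, so their values are not read here one by one. The Hbb-bs cluster, with 84 cells, had 4 erythroid markers among its leading genes, with the microglial markers Ctss, Csf1r, C1qc and C1qa. Its content is thus in part not neuronal, but it stays in the counts above and in the correlations over 21 clusters. The other neurons of a comparison include the Tac2 and Oxt clusters, where Pcsk1 was highest. A lower Pcsk1 in a further cluster is thus relative to a reference that holds them, and no value without them was computed.

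**Figure D2:**
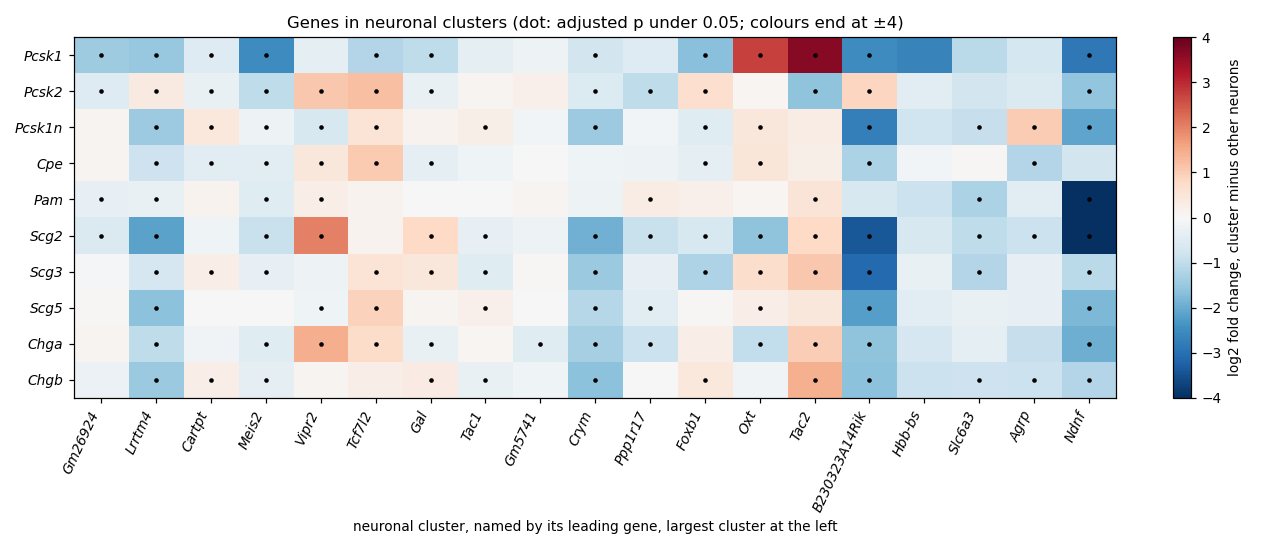
Log2 fold change of the 10 genes (rows) in 19 of the 20 clusters of neurons tested (columns) against the other neurons of the same library. Colours end at -4 and 4, and a dot marks an adjusted p below 0.05. Over the libraries of both genotypes Pcsk1 is highest in the Tac2 and Oxt clusters, at 3.63 and 2.73, and Scg2 in the Vipr2 cluster, at 2.01. Most Pcsk1 UMIs of the Tac2 cluster came from Esr1cKO mice. Most marked values are below 0.

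The Tac2 cluster held 111 cells, 1.21% of neurons, and 29.6% of the Pcsk1 UMIs of all neurons. Most of these Pcsk1 UMIs came from Esr1cKO mice. There were 3 in WT oil, 32 in WT tamoxifen, 172 in Esr1cKO oil and 255 in Esr1cKO tamoxifen mice, from 10, 27, 29 and 45 cells. Pooled over the WT oil cells, Pcsk1 stood at 132 CPM here (counting interval 27.2 to 386) and at 396 CPM in the Oxt cluster (254 to 590). In WT tamoxifen mice the same levels were 371 (253 to 523) and 369 CPM (290 to 464). In WT mice the Tac2 cluster was thus not above the Oxt cluster in Pcsk1. Tac2 encodes neurokinin B, and its transcripts made up 17548 CPM of the cluster, whose cells also had Esr1 and Tbx3. Over the 10 libraries with at least 5 such cells Pcsk1 ranged from 0 to 1969 CPM with a median of 827. The other neurons averaged 65.9 CPM, and Pcsk1 was higher in the cluster in 9 of 10 libraries (log2 fold change 3.63, SE 0.19, adjusted p below 0.05, edgeR). Pcsk2 went the other way, from 0 to 156 CPM with a median of 54.2, below the other neurons' mean of 245 CPM in each of the 10 libraries (-1.62, SE 0.27). Chgb (1.42), Scg3 (1.08), Chga (0.98), Scg2 (0.78) and Pam (0.52) were also higher, and Scg5 (0.46, adjusted p = 0.0794), Pcsk1n (0.31, 0.292) and Cpe (0.23, 0.464) did not pass the test in edgeR. These 7 of 10 genes compare with 11.2% of genes tested in the cluster, and the 6 higher ones with 2.93%. In the 4 WT libraries alone Chga, Chgb, Scg3 and Pam turned to -0.83, -0.33, -0.27 and -0.23 and did not pass, and Pam also did not pass without the libraries that stood apart (0.40).

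The Oxt cluster held 144 cells, and its most abundant peptide transcript was Avp, at 98328 CPM of the UMIs summed over the cluster. Whether the same cells held both Oxt and Avp was not counted. Pcsk1 ranged from 337 to 690 CPM over 11 libraries with a median of 411, above the other neurons in each of them (mean 77.0 CPM; 2.73, SE 0.15). The cluster held 18.9% of the neuronal Pcsk1 UMIs from 1.57% of the neurons. Scg3 (0.71), Cpe (0.49), Pcsk1n (0.45) and Scg5 (0.26, adjusted p = 0.0427 from edgeR) were higher as well. Scg2 was lower, at 1110 ± 792 CPM against 3234 (SD, n = 11; -1.60, SE 0.11), in 11 of 11 libraries, and so was Chga (-0.97). Pcsk2 (0.07), Pam (0.08) and Chgb (-0.14) did not pass the test. These 7 of 10 genes compare with 19.8% of all genes tested there, and the 5 higher ones with 7.0%. The 42 listed peptide precursors together made up 130536 CPM of this cluster, and with their UMIs removed from every library 123 tests over the clusters passed in place of 122.

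The Vipr2 cluster, with 905 cells, had the highest Scg2 level. Scg2 ranged from 5207 to 11049 CPM over 16 libraries with a median of 9423, against a mean of 2420 in the other neurons, and was higher in 16 of 16 (2.01, SE 0.06). Chga was higher in 16 of 16 libraries as well (1.47, SE 0.08; 926 against 348 CPM), and Pcsk2 in 15 of 16 (1.09, SE 0.09; 466 against 233 CPM). Cpe (0.47) and Pam (0.27) were higher, Pcsk1n was lower in 16 of 16 libraries (-0.63) and Scg5 was lower (-0.18), while Pcsk1 (-0.40), Scg3 (-0.19) and Chgb (0.12) did not pass. Of all genes tested 37.1% passed in this cluster.

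Of the genes that passed, the largest rise was that of Scg2 in the Gal, Pcsk1n in the Agrp and Pcsk2 in the Tcf7l2 cluster. Scg2 and Pcsk2 were also higher in the Vipr2 cluster, as given above. In the Gal cluster Scg2 (0.80, higher in 15 of 15 libraries), Scg3 (0.45, 15 of 15) and Chgb (0.34) were higher, and Pcsk1 (-1.02), Cpe (-0.37), Chga (-0.31) and Pcsk2 (-0.29) lower, against 22.8% of genes passing. In the Agrp cluster, whose most abundant peptide transcript was Npy at 12650 CPM, Pcsk1n ranged from 2665 to 5382 CPM over 5 libraries, each above its other neurons (mean 1467 CPM; 1.01, SE 0.18). Cpe (-1.18), Scg2 (-0.87) and Chgb (-0.85) were lower there, so that 4 of 10 genes passed against 3.1% of genes tested. In the Tcf7l2 cluster Pcsk2 (1.21), Cpe (1.06), Scg5 (0.92), Chga (0.72), Pcsk1n (0.55) and Scg3 (0.54) were higher and Pcsk1 (-1.17) lower, against 23.7% of genes. Its cells were shallow, with a median of 391.5 UMIs, and among its cells with more than 500 genes Pcsk1n, Scg3 and Chga stood at -0.39, -0.26 and -0.22 and did not pass.

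Clusters with low levels were as regular. In the Meis2 cluster 9 of the 10 genes were lower (Pcsk1 -2.52, Pcsk2 -1.02 and Scg2 -0.90), against 18.2% of genes passing, and in the Crym cluster 8 were lower (Scg2 -1.94 and Chgb -1.66), against 23.3%. In the Lrrtm4 cluster 9 were lower, with Scg2 at -2.15, Scg5 at -1.63 and Pcsk1 at -1.51, and Pcsk2 was higher at 0.37, but 77.4% of all genes passed there. In the Foxb1 cluster Pcsk2 (0.67) and Chgb (0.43) were higher, while Pcsk1 (-1.66) and Scg3 (-1.24) were lower, against 23.1%.

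The balance of the 2 convertases was then measured within cells of a cluster as the Pcsk2 share of all Pcsk1 and Pcsk2 UMIs. This share does not depend on how many UMIs other genes took up. Over all neurons it ranged from 63.3% to 89.0% among libraries, with a mean of 76.3% ± 8.49 (SD, n = 16). It differed from that of the other neurons of the same library in 8 of 16 clusters tested (two-sided exact sign-flip permutation tests over libraries, adjusted over the 16 clusters). It was lowest in the Tac2 cluster, at 7.49% ± 5.04 against 79.0% in other neurons (SD, n = 8; range 0% to 14.3%; exact permutation test, adjusted p = 0.0179), and pooled it was 40 of 478 UMIs, 8.37% (6.05 to 11.2). Of those 8 libraries 7 were Esr1cKO. A library with low Pcsk1 in this cluster could fail the limit of 10 UMIs, so the filter bears on this range. Left out were WT oil replicates 1, 2 and 3, with 1, 0 and 2 Pcsk1 and 2, 0 and 2 Pcsk2 UMIs. WT tamoxifen replicates 2 to 5 had 5, 3, 8 and 3 Pcsk1 and 0, 0, 0 and 1 Pcsk2 UMIs. Esr1cKO tamoxifen replicate 2 had 2 and 0. The Oxt cluster followed at 34.2% ± 7.93 against 78.5% (n = 13; range 20% to 43.5%; exact permutation test, adjusted p = 0.0013). The other 6 clusters that differed had a higher share than other neurons: Gal at 83.9%, Meis2 at 88.0%, Vipr2 at 88.5%, Foxb1 at 91.9%, Lrrtm4 at 92.3% and Tcf7l2 at 94.9%. For these 6 clusters the other neurons include the Tac2 and Oxt clusters, whose low share enters the reference. Those clusters held 438 and 279 Pcsk1 UMIs in the libraries used, where all neurons held 1559. Shares against the neurons outside both clusters were not computed. Among the libraries that met the limit of 10 UMIs, the Tac2 and Oxt clusters did not overlap with each other or with any of these 6 clusters. The Ppp1r17 cluster, at 63.5% ± 18.5 against 73.7% in other neurons (SD, n = 6), did not pass (exact permutation test, adjusted p = 0.308).

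**Figure D3:**
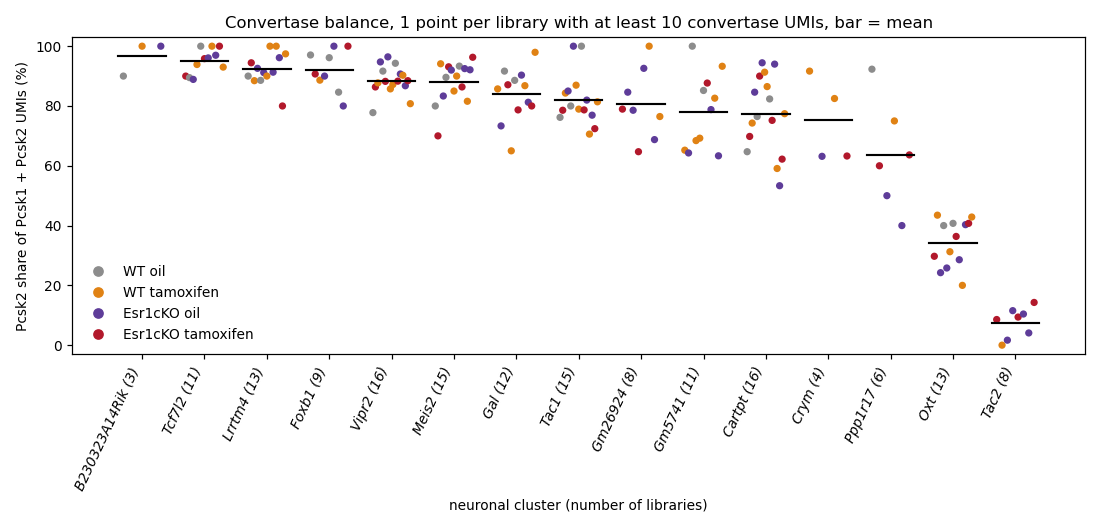
Pcsk2 share of Pcsk1 and Pcsk2 UMIs in percent (vertical axis) in 15 of the 16 clusters of neurons tested, 1 point per library with at least 10 such UMIs, and the mean as a bar. The Tac2 cluster lies at 0% to 14.3%, below every other cluster drawn, and the Oxt cluster at 20% to 43.5%, where it overlaps with the Ppp1r17 cluster, whose 6 libraries reach down to 40%.

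Across the 21 clusters, as a description in which clusters share libraries and differ in depth, Pcsk1 and Pcsk2 levels had a Pearson r of -0.32 (log2(CPM + 10), n = 21 clusters). Scg2 and Chga had an r of 0.84, Pcsk1n and Scg5 of 0.86 and Scg5 and Chgb of 0.75. The summed level of the 42 peptide precursors had an r of 0.63 with Pcsk1, 0.57 with Pcsk1n, 0.54 with Scg3 and -0.06 with Pcsk2. Among the 4274 genes with at least 1000 UMIs in neurons, those most like Pcsk1 were Gnptg (0.80), Nucb2 (0.72) and Ssr4 (0.70). Those most like Pcsk2 were Med14 (0.73), Col25a1 (0.70) and Fut8 (0.69), and those most like Scg2 were B630019K06Rik (0.86), Chga (0.84) and Tram1l1 (0.84). Those most like Pcsk1n were Atraid (0.93), Ergic3 (0.88) and Ssr2 (0.87).

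The effect of tamoxifen on these genes was tested by cell type in each genotype, together with the difference between genotypes and the genotype itself. None of the 10 genes passed in any of the 4 comparisons: 0 of 69 tests over the 9 cell types in each, where all genes together gave 0.0% of 65492 tests for both tamoxifen comparisons and for their difference, and 0.00305% for genotype (edgeR, adjusted p below 0.05). At an unadjusted p under 0.05 the 69 tests gave 3 for tamoxifen in WT mice, 5 for tamoxifen in Esr1cKO mice, 6 for the difference and 3 for genotype, where all genes gave 3.26%, 3.59%, 4.86% and 3.43% of their tests. Within the 8 neuronal clusters with enough cells in every group, 0 of 71 tests passed in each comparison, against 0.0% of all genes for the tamoxifen comparisons and their difference and 0.00492% for genotype. There the counts at an unadjusted p under 0.05 were 2, 2, 1 and 5, against 3.51%, 3.23%, 4.55% and 3.29% of the tests of all genes. DESeq2 gave 0 members over the cell types in the tamoxifen comparisons and their difference and 1 for genotype. In counts simulated for tamoxifen against oil in WT neurons, edgeR recovered 8.22% of 1.5-fold, 33.3% of 2-fold and 100% of 4-fold changes. Most changes of 2-fold or less in neurons would thus be missed. The same counts gave 3 false calls. All genes shared 1 common dispersion in them, and changes were set only in well-counted genes. For the group comparisons the other cell types and the clusters were not simulated.

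In neurons the fitted effects of tamoxifen ran from -0.31 for Chgb to 0.30 for Pcsk1 in WT mice and from -0.13 for Pcsk2 to 0.39 for Pcsk1n in Esr1cKO mice, on the log2 scale, with standard errors of 0.14 to 0.31. Pcsk2 was at 242 ± 19.1 CPM in WT oil mice (SD, n = 3) and 266 ± 83.7 in WT tamoxifen mice (n = 5), and Scg2 at 2789 ± 1225 and 2991 ± 475 CPM. Pcsk1n had the largest fitted difference between the genotypes' tamoxifen effects, 0.65 (SE 0.27, adjusted p = 0.929, edgeR). It stood at 784, 934, 1669 and 971 CPM in the Esr1cKO oil libraries and at 1525, 1374, 1508 and 1323 in the Esr1cKO tamoxifen libraries, so the groups overlapped through 1 oil library, replicate 3. In WT mice it stood at 1646 ± 216 CPM with oil and 1401 ± 125 with tamoxifen.

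**Figure D4:**
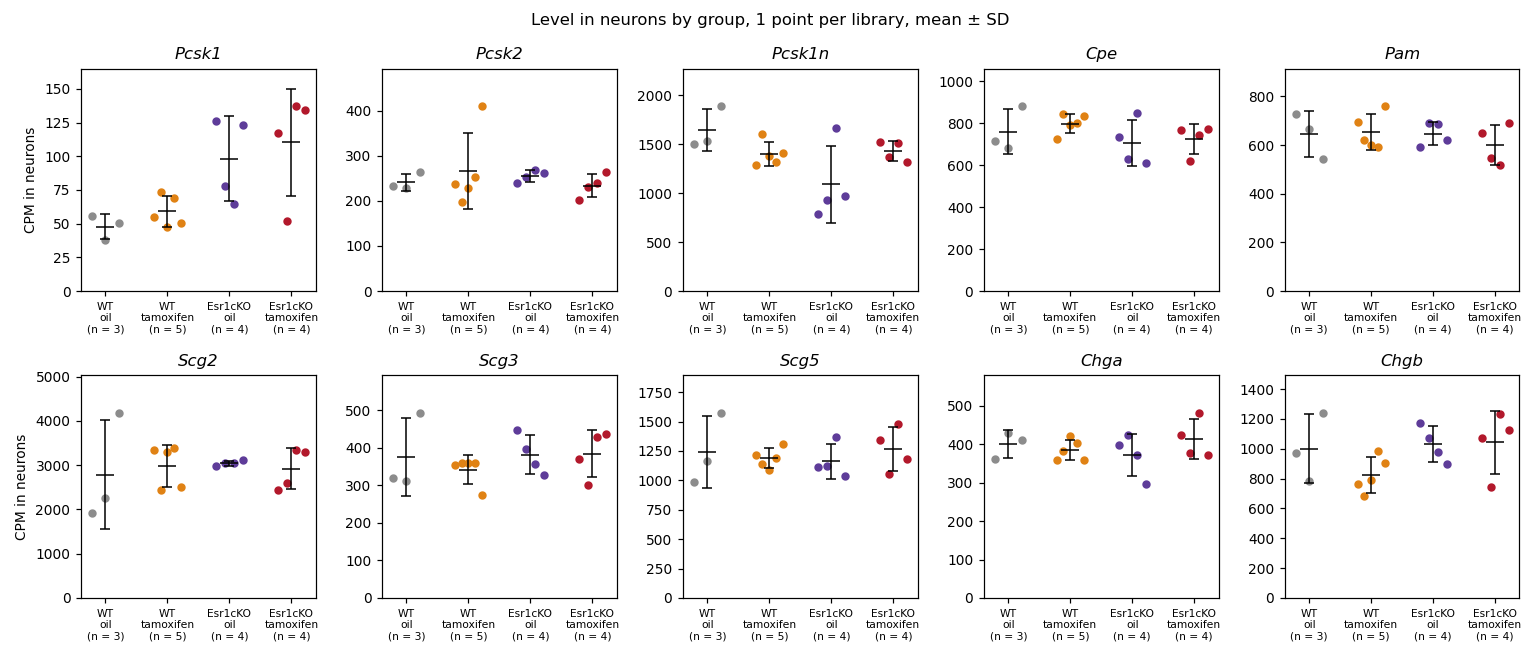
Levels of the 10 genes in neurons by group. The vertical axis of each panel is CPM from 0, points are libraries and bars are the mean and SD of WT oil (n = 3), WT tamoxifen (n = 5), Esr1cKO oil (n = 4) and Esr1cKO tamoxifen (n = 4). Every pair of groups overlaps for the 9 genes other than Pcsk1. For Pcsk1 the Esr1cKO oil libraries, at 64.8 to 127 CPM, lie above the WT oil libraries, at 37.6 to 55.5 CPM, and the other pairs overlap. How many of the 12442 genes tested in neurons separate a pair of groups in this way was not counted.

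Pcsk1 by genotype was the smallest p among these tests. In neurons it stood at 55.5, 37.6 and 50.3 CPM in WT oil mice, at 55.1, 73.2, 47.4, 68.9 and 50.7 in WT tamoxifen mice, at 127, 77.7, 64.8 and 124 in Esr1cKO oil mice, and at 117, 52.2, 138 and 134 in Esr1cKO tamoxifen mice. The Esr1cKO libraries lay above the WT ones except for 2, oil replicate 3 and tamoxifen replicate 2. The fitted difference was 1.03 on the log2 scale (SE 0.21), and it did not pass after adjustment (adjusted p = 0.269 by edgeR, against 1.1e-04 before adjustment), where 0.0161% of the 12442 genes tested in neurons did. Without Esr1cKO tamoxifen replicate 2 it did pass (1.13, adjusted p = 0.0273 by edgeR), as it did in DESeq2 with all libraries (1.02, adjusted p = 0.0079). Without the libraries that stood apart it stood at 1.03 (adjusted p = 0.0537, edgeR). Without the cells of the Tac2 cluster it was 0.46 (SE 0.18, adjusted p = 1, edgeR), and without those of the Oxt cluster 1.05 (adjusted p = 0.504). The group means outside the Tac2 cluster were 47.1, 54.8, 65.2 and 69.6 CPM, and outside both clusters 39.5, 43.4, 43.8 and 51.1 CPM, for WT oil, WT tamoxifen, Esr1cKO oil and Esr1cKO tamoxifen. The Pcsk2 share of convertase UMIs in neurons was 83.5% ± 2.56, 80.9% ± 5.84, 72.6% ± 7.12 and 68.7% ± 8.67 in the same order (SD; n = 3, 5, 4 and 4).

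Genotype was therefore also compared within neuronal clusters, a comparison chosen after these values were seen, with treatment as a covariate and clusters with at least 5 cells in at least 3 libraries of each genotype. In the Tac2 cluster, with 4 WT and 6 Esr1cKO libraries, 5 of the 9 genes tested were higher in Esr1cKO mice and 0 lower, against 7.13% of the 757 genes tested there, 6.34% as higher. In the other 17 clusters 0 of the 10 genes passed in edgeR, against 0.0% to 4.76% of all genes by cluster. Over the 18 clusters 13 of 131 tests had an unadjusted p under 0.05, against 4.06% of the tests of all genes, and 6 of them were outside the Tac2 cluster, where all genes gave 3.54%. The median log2 fold change of the 9 genes in the Tac2 cluster was 1.26.

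Chgb stood at 229, 1246, 512 and 1173 CPM in the 4 WT libraries, which are WT oil replicate 2 and WT tamoxifen replicates 1, 2 and 4. It stood at 5007, 4880 and 2639 in Esr1cKO oil replicates 1, 3 and 4 and at 5050, 5666 and 3075 in Esr1cKO tamoxifen replicates 1, 3 and 4. The genotypes did not overlap, and the log2 fold change was 2.32 (SE 0.34, adjusted p = 2.2e-04, edgeR). Pcsk1 stood at 0, 450, 427 and 241 CPM in the same WT libraries, and at 1448, 971 and 1969 in the Esr1cKO oil and 1253, 1500 and 683 in the Esr1cKO tamoxifen libraries. Again the genotypes did not overlap among these libraries (1.87, SE 0.42, adjusted p = 0.0064, edgeR). The value of 0 came from WT oil replicate 2, with 5 cells and 4358 UMIs in the cluster. Left out with fewer than 5 cells, WT tamoxifen replicate 5 stood at 755 CPM and Esr1cKO tamoxifen replicate 2 at 381, from 1 cell each. These values lie within the range of the other genotype. Also left out were WT libraries at 98.4, 353 and 244 CPM and Esr1cKO oil replicate 2 at 1206. In the libraries of the fit Scg3 ranged from 242 to 631 CPM in WT and from 838 to 1390 in Esr1cKO mice (1.5, SE 0.32). Scg5 ranged from 683 to 1211 and from 1936 to 3133 (1.26, SE 0.26), and neither gene overlapped there. Chga ranged from 0 to 391 and from 251 to 2233 CPM, overlapping through Esr1cKO oil replicate 4 (2.25, SE 0.49). Cpe (0.73, adjusted p = 0.106), Pam (0.63, 0.255), Scg2 (0.57, 0.296) and Pcsk1n (0.11, 0.929) did not pass in edgeR. Exact permutation tests of single genes gave p = 0.0048 for Pcsk1, Scg3, Scg5 and Chgb, and p = 0.0143 for Chga. The former is the smallest value that 4 against 6 libraries allow, and it restates the separation given above. These p-values are not adjusted and leave treatment out, and the cluster was chosen after its Pcsk1 values were seen. How many of the 757 genes tested in the cluster separate the genotypes this fully was not counted.

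Pcsk2 did not reach the count filter in that fit, and no test of it is given. It had 0 UMIs in the 4 WT libraries of the fit together and 24.5 to 156 CPM in the 6 Esr1cKO libraries. The 4 WT libraries with fewer than 5 cells of the cluster did hold Pcsk2, with 5 UMIs in 8 cells. Pooled over all cells of the cluster, Pcsk2 stood at 45.9 CPM in WT mice (14.9 to 107, 5 UMIs) and 113 CPM in Esr1cKO mice (80.9 to 154, 40 UMIs), and these counting intervals overlap.

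Several other measures moved with genotype in this cluster. Its cells were fewer and shallower in WT mice: 10 and 27 cells in the WT oil and WT tamoxifen groups against 29 and 45 in the Esr1cKO oil and tamoxifen groups, with median depths of 1087, 3310, 4725 and 5031 UMIs. Tac2 itself stood at 5901 CPM in WT and 20456 in Esr1cKO libraries (1.96, adjusted p = 6.7e-04, edgeR), and Esr1 at 501 and 218 CPM (-1.36, adjusted p = 0.105, edgeR), while Tbx3 stood at 321 and 391 CPM. The part of depth and of cluster membership in the differences above was not tested. When cells were taken instead as all neurons with at least 3 Tac2 UMIs, 22, 96, 61 and 93 cells in the same order of groups, of which 7, 25, 27 and 44 lay in the Tac2 cluster, Pcsk1 (2.45), Chgb (1.98) and Scg5 (0.85) passed, against 3.02% of genes, and Scg3 (0.82) and Chga (1.22) did not. That choice mixes cells of the Tac2 cluster with other neurons in proportions that differ by genotype. It therefore cannot set a difference in level apart from a difference in the mix of cells. In the fit of the Tac2 cluster without WT tamoxifen replicate 4, Pcsk1 did not pass (1.68, adjusted p = 0.0525, edgeR). Without WT tamoxifen replicate 1 Scg3 (1.28, 0.0615) and Chga (2.15, 0.0530) did not pass. Without Esr1cKO tamoxifen replicate 3, the only library of the cluster fit that stood apart, all 5 genes passed, with Chgb at 2.21 and Pcsk1 at 1.68.

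**Figure D5:**
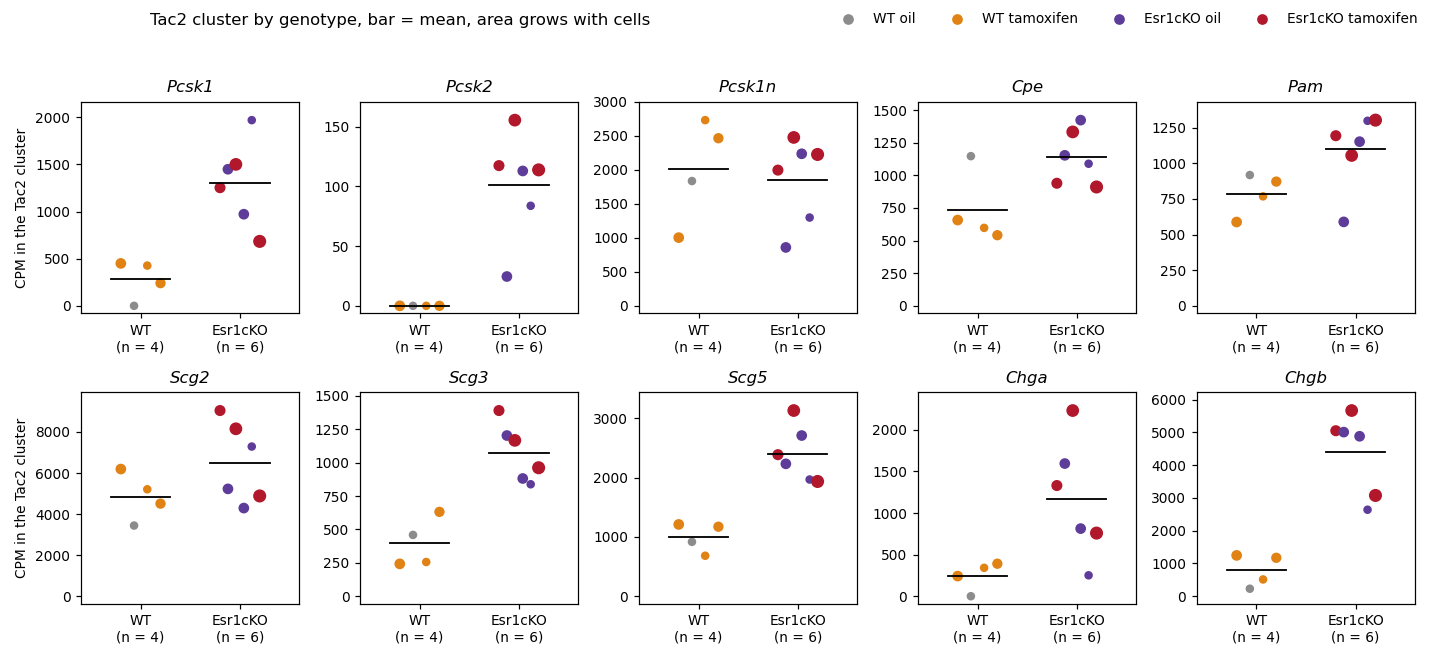
Levels of the genes in the Tac2 cluster in CPM (vertical axes from 0) by genotype, for 4 WT and 6 Esr1cKO libraries with at least 5 cells of the cluster. Each point is a library and its area grows with the number of cells. For Chgb, Pcsk1, Scg3 and Scg5 each Esr1cKO library drawn lies above each WT library drawn. Chgb is at 2639 to 5666 against 229 to 1246 CPM. How many of the 757 genes tested in the cluster separate in this way was not counted.

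The Oxt cluster, the other cluster with high Pcsk1, had no gene of the 10 that passed by genotype, nor did any other gene (0.0% of 790). Pcsk1 stood at 378 CPM in its 4 WT and 533 CPM in its 7 Esr1cKO libraries (0.40, adjusted p = 0.999, edgeR). Pooled over all cells of each group, Pcsk1 in the Oxt cluster stood at 396 (254 to 590), 369 (290 to 463), 583 (476 to 707) and 499 (403 to 612) CPM for WT oil, WT tamoxifen, Esr1cKO oil and Esr1cKO tamoxifen, with intervals for counting error. In the Tac2 cluster the same pooled levels were 132 (27.2 to 386), 371 (253 to 523), 1344 (1151 to 1561) and 1131 (997 to 1279) CPM.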

How the data were processed

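Drop-seq UMI counts per gene and cell barcode were deposited by the authors for each of the 16 mice, as whole numbers without normalization and with genes given by symbol. The submitters' processing notes name STAR 2.6 and mm10, and the annotation is not given in the sources used here. Groups came from the sample titles, replicate numbers follow the order of the samples, and mice are the replicates.

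The study's limits on cells were applied (genes above 200 and below 4000, mitochondrial UMIs below 15%). Clustering used Seurat 5.3.0 in R 4.3.3, with CCA anchors between groups (30 dimensions), 20 neighbour dimensions, 2000 variable genes and a resolution of 0.05, or 0.5 for finer types. For neurons alone 500 variable genes and a resolution of 0.7 were used. The 10 genes were removed from the variable genes. Doublets called by Scrublet in scanpy 1.11.5 (494 cells, 0.887%) were kept in the main results. Clusters were named from fixed markers, and neuronal clusters by the gene with the highest fold among genes found in at least 20% of their cells.

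Sums of UMIs over the cells of a type (at least 10 per library) or of a neuronal cluster (at least 5, in at least 3 libraries) were tested in edgeR 4.0.16 (quasi-likelihood, TMM, filterByExpr, Benjamini-Hochberg over all genes, threshold 0.05), with group as the factor, or with library as a block for a type against the other cells. The Pcsk2 share used libraries with at least 10 convertase UMIs. That share and the order of cell types were tested by exact sign-flip permutation tests over libraries. Simulated counts with known changes were used to test the scripts. All tests were two-sided.

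The 10 genes were named in every comparison, other pathway genes as the 2 with the largest fold in neurons per list, and similar genes as the 3 with the highest r. The genes, lists and tests were chosen with earlier results of these data known. Alternatives were DESeq2 1.42.0, its size factors, no filter on low counts, fours of library numbers as a block, WT libraries alone, cells with more than 500 genes, under 5% mitochondrial UMIs, doublets removed, peptide UMIs removed, thinning to 500 or 1000 UMIs, a finer resolution and each library left out in turn. The annotation of positions was GENCODE vM21, and promoters came from RefSeq. The values of 1 neuronal cluster are not reported here. Column sets of other samples left unused numbered 0.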

Additional observations from a re-analysis of the deposited data

Results flagged for a closer look

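Of 33 groups of 4 or 5 libraries examined for the 10 genes and the convertase balance in neurons, 3 held a library far from the others, where chance gives about 1 in 20. Pcsk2 in the neurons of WT tamoxifen replicate 5 stood at 412 CPM, against 199 to 252 CPM in the other 4 libraries of its group. In the same library Scg3 stood at 273 CPM, below the 355 to 361 CPM of the others. That library had the shallowest neurons of its group, with a median of 816 UMIs against 1229 to 1591, and 373 of its kept cells carried barcodes found in another library. The Pcsk2 share of convertase UMIs in the neurons of Esr1cKO tamoxifen replicate 2 was 81.5%, against 63.3% to 66.3% in the other 3 libraries of its group, and that library had 244 neurons, the fewest of the 16. The part of depth or cell number in these values was not tested.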

How the results depend on the processing

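No paired analysis was possible because the sample labels carry no replicate number, litter or day that ties mice of different groups to each other, and the replicate numbers used here only follow the order of the samples. The methods state 4 days of 4 mice each, so successive fours of library numbers were tried as a stand-in for the day. With them as a block, 0 tests of the 10 genes passed in each of the 4 group comparisons, as without it. Settings that leave out the libraries that stood apart, shared barcodes or pars tuberalis-like cells, and the genotype comparison within the Tac2 cluster, were added after seeing the data.

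Over the 9 cell types the group comparisons gave 0 passing tests of the 10 genes in all settings run, except 1 for tamoxifen in WT mice without a filter on low counts (Chgb in fibroblasts), and for genotype 1 in DESeq2 and 1 without the filter, both Pcsk1 in neurons. For genotype the libraries left out in turn gave 0 to 1. For the neuronal clusters the WT libraries alone gave 74 passing tests in place of 122, with the Agrp cluster not fitted, and for the Pcsk2 share 0 of 11 clusters in place of 8. There the Oxt cluster stood at 36.4% against 85.4% in other neurons over 6 libraries, whose smallest possible exact permutation p of 0.0312 did not pass after adjustment, and the Tac2 cluster had too few WT libraries to be tested. For genotype within the Tac2 cluster, neurons with at least 3 Tac2 UMIs gave 3 passing genes in place of 5, and leaving out 1 library 3 to 5. The counts of cell-type tests stayed within 81 to 87 against 85, and those of cluster tests other than the WT libraries alone within 102 to 143.

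Of the log2 differences of cell types and clusters followed one by one, with Pcsk1 by genotype and Pcsk1n for the difference of tamoxifen effects in neurons, 1827 kept their direction and their side of the threshold under an alternative, 84 no longer passed, 9 passed where they had not, and 14 changed direction. The fitted group effects of the 10 genes in neurons changed direction in 16 of 270 values for tamoxifen in WT mice, 23 for tamoxifen in Esr1cKO mice, 20 for the difference and 20 for genotype. With the WT libraries alone Scg3 in neurons stood at -0.094, and in the Tac2 cluster Pam at -0.23, Scg3 at -0.27, Chga at -0.83 and Chgb at -0.33. In fibroblasts Chga stood at -3.42 and Chgb at -4.24 without pars tuberalis-like cells, and at -4.23 and -4.45 at a resolution of 0.5. Without a filter on low counts Scg5 in the Oxt cluster stood at -0.043 and Pcsk2 in the Lrrtm4 cluster at -0.17. Among cells with more than 500 genes Pcsk1n, Scg3 and Chga in the Tcf7l2 cluster stood at -0.39, -0.26 and -0.22. Both fibroblast settings leave out the pars tuberalis-like cells, and for the other values the cause was not tested. The group comparisons within clusters could not be fitted without the libraries that stood apart, for lack of WT oil libraries, and the Hdc cluster was not tested.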

Other observations

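Among the other neuronal clusters, the Ppp1r17 cluster had lower Pcsk2 (-1.02), Scg2 (-0.90), Chga (-0.85) and Scg5 (-0.42) and higher Pam (0.29) than other neurons on the log2 scale, against 13.3% of genes passing there by edgeR. The Cartpt cluster had higher Pcsk1n (0.43), Scg3 (0.28) and Chgb (0.26) and lower Pcsk1 (-0.52), Cpe (-0.42) and Pcsk2 (-0.31), against 18.7% of genes. Its Pcsk1 was set against other neurons that include the Tac2 and Oxt clusters, and was not compared with the neurons outside both. In the Tac1 cluster Pcsk1n (0.24) and Scg5 (0.22) were higher and Scg3 (-0.49), Scg2 (-0.33) and Chgb (-0.31) lower, against 18.6%. Across the 21 clusters, as a description, the genes most like Scg5 were led by Canx (r = 0.92), those most like Scg3 by Npc2 (0.91), those most like Pam by Tmco1 (0.89), those most like Cpe by Gm26924 (0.85), those most like Chga by Scg2 (0.84) and those most like Chgb by Tgoln1 (0.83). The clusters share libraries and differ in depth, and the r that choosing the highest of so many genes gives by itself was not computed.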
